A study of Schizosaccharomyces pombe with 3 samples.

Results

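The outermost 20 kb at the right end of chromosome II of the fission yeast Schizosaccharomyces pombe was measured by 400 of the 43993 probes of an Agilent tiling array. Its members are all non-control probes whose position on the array's own chromosome II lies between bases 4521601 and 4541560, by the coordinate named first (399 probes by the lower coordinate). They are 60-mers spaced 50 bp apart, and all 400 were kept. The rule uses position alone and no measured value, but it was chosen with earlier results of these data known.

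Acetylation of lysine 9 of histone H3 (H3K9ac) was mapped by chromatin immunoprecipitation in 3 strains, with 1 array each. The strains were a deletion of alp13, the asf1-1 allele of asf1, and wild type. No other marker or allele is given in the labels, and how the mutants were made is not stated there. All cultures grew in rich medium (YEA) at 30 °C in the logarithmic phase, and fixation was with paraformaldehyde (3%, at 18 °C). On each array the DNA pulled down with the antibody was labelled with Cy5, and DNA of the whole extract with Cy3. A level here is log2 of processed Cy5 over processed Cy3, set so that the median of all kept probes of an array is 0. A change is the difference of such levels between 2 arrays. With 1 array per strain, no difference in this text has a replicate check or a p-value. Which array belongs to which strain is known from the labels, and no value in the files checks it. The authors' deposited value table does not match these arrays column by column and was not used.

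Acetylated H3K9 marks active promoters, and histone deacetylases remove it. At fission yeast chromosome ends the telomere repeats are followed inward by subtelomeric DNA that is packed into heterochromatin, where H3K9 is methylated and bound by the HP1 protein Swi6. Alp13 is a chromodomain subunit of the histone deacetylase complex Clr6. Asf1 is a histone chaperone that hands histones H3 and H4 to the factors that build nucleosomes, among them HIRA. The telomere-linked helicase genes of the tlh family lie in the subtelomeric repeats, are kept silent in wild-type cells, and hold a stretch similar to the dg and dh repeats of the centromeres. The comparison of each mutant with wild type asks whether the deacetylase subunit or the chaperone is needed for the low acetylation of such a region.

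The array coordinates differ from those of the RefSeq reference ASM294v3, whose chromosome II ends at base 4539804. Probes were therefore placed on the reference by the match of base composition to the Cy3 signal, and an offset of -1800 bp was applied. The best offset for the 400 probes alone was -1805 bp, with r = 0.698, against 0.546 at the next best. The outermost probe then ends 44 bases before the reference ends. All reference bases below are RefSeq ASM294v3, and their link to a probe rests on this offset. The first stretch is shown because it holds the start of tlh2, the sole protein-coding gene of the region. It is on the plus strand at II:4526635-4526934, and the capitals are the first 50 bases of the annotated gene.

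tlh2 start: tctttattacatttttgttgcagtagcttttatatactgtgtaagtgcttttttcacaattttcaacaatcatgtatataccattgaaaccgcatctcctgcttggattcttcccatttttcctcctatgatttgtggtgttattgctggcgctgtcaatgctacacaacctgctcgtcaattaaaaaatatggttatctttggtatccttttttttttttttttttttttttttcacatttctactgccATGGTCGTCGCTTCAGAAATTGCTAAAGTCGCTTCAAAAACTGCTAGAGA

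The second set shows how far the region repeats sequence found in other places, since a probe cannot tell near-identical copies apart. Of the 400 members, 309 had at least 1 near-copy elsewhere in the reference, among them 269 at the left end of chromosome I, where tlh1 lies, and 122 at the right end of chromosome I. A near-copy is a stretch with at least 50 of 60 bases identical, and 77 members had one elsewhere within the right end of chromosome II. The other 91 members, 0.68 to 7.23 kb from the outermost probe, had none. Below, each line of 60 bases from the region is followed by its near-copies, and capitals mark the positions at which the aligned lines differ. The region's stretches are II:4525951-4526010 (highest wild-type level, with a copy just before mae1, I:4912036-4912095), II:4524751-4524810 (with a copy in mae2, III:276992-277051), II:4528951-4529010 (inside tlh2, with a copy in centromere 2, II:1610864-1610923) and II:4520601-4520660 (largest rise in asf1-1, with copies at I:11889-11948 on the minus strand and I:5575774-5575833). All others are on the plus strand.

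highest in wild type: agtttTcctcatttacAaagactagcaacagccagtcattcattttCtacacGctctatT
copy before mae1: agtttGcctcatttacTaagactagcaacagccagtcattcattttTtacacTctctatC
malic enzyme pseudogene: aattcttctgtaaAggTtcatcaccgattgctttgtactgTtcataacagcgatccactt
copy in mae2: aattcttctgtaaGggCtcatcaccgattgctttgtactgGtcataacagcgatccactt
tlh2, inside: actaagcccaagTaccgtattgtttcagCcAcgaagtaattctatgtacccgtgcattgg
copy in centromere 2: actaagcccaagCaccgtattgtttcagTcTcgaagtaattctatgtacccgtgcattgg
largest rise in asf1-1: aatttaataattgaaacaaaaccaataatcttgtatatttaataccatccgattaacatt
copy at the left end of I: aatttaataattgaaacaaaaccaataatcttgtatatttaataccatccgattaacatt
copy at the right end of I: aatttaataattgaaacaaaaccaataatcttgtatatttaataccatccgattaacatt

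The copy before mae1 shares 55 of 60 bases with the region, those in mae2 and centromere 2 share 57 of 60, and both chromosome I copies of the last stretch are identical to it over all 60. A signal at that last probe can thus come from 3 chromosome ends.

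Signal was sufficient for most members. The median Cy3 intensity over all kept probes was 1619, 1693 and 1811 on the alp13 deletion, asf1-1 and wild-type arrays, and the median Cy5 intensity was 2101, 1895 and 1808 in the same order. In the outermost 20 kb, median Cy3 was higher, at 6299.1, 5642.3 and 5466.0, and median Cy5 was 1036.2, 1167.3 and 993.7. Cy5 was not well above background at 4, 9 and 5 of the 400 members in that order, and 390 members were well above background in both channels on all arrays. Near-duplicate probes (239 pairs) put the SD of 1 probe's level within an array at 0.165, 0.136 and 0.126, and that of 1 probe's change at 0.133 for the alp13 deletion and 0.0768 for asf1-1. These are errors within arrays and do not stand for replicate cultures.

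H3K9ac was low across the whole of the outermost 20 kb in all 3 strains. The median level was -3.00 in the alp13 deletion (quartiles -3.26 and -2.67), -2.33 in asf1-1 (-2.86 and -1.88) and -2.29 in wild type (-2.66 and -1.83). The members ranged over -4.03 to -1.27 in the alp13 deletion, -3.62 to -1.0 in asf1-1 and -3.36 to -0.08 in wild type. No member lay above its array's median on any array, whereas 50.5% of the rest of the array did, and there was accordingly no run of 5 or more probes above 0.

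The adjoining 30 kb, the inner subtelomere (598 kept probes), was intermediate. Its median levels were -1.67 in the alp13 deletion, -1.08 in asf1-1 and -0.93 in wild type. The outermost 20 kb lay below it by 1.33, 1.25 and 1.36 in the same order, a step of similar size on each array. The SD across the outermost probes was 0.54, 0.65 and 0.61. Some 83.0%, 80.0% and 82.2% of the 400 members lay below the 5th percentile of the inner subtelomere. Centromere 2, taken between its flanking tRNA genes (820 probes), had medians of -3.15, -3.00 and -2.28. The median of the outermost 20 kb was thus near that of centromere 2 in the alp13 deletion and in wild type, and above it in asf1-1. In asf1-1 the 137 members between tlh2 and the chromosome end had -2.86, near centromere 2, and the 143 inward of tlh2 had -1.94.

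**Figure D1:**
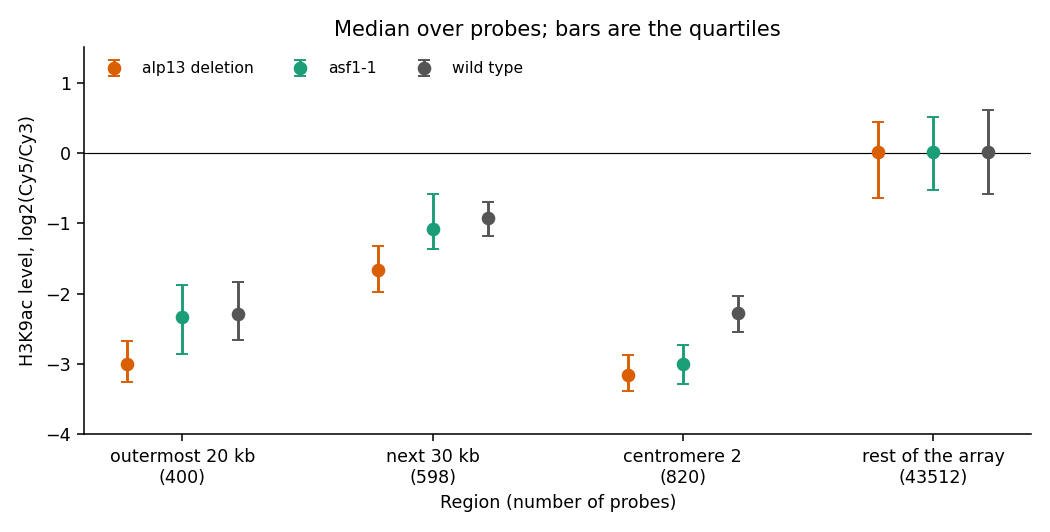
Median H3K9ac level (log2 of Cy5 over Cy3, array median 0) of the outermost 20 kb, the next 30 kb, centromere 2 and the rest of the array, which here includes the other regions, with bars for the quartiles over probes. The outermost 20 kb has medians of -3.00, -2.33 and -2.29 in the alp13 deletion, asf1-1 and wild type, all below those of the next 30 kb.

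The edge of the region has no sharp break. The 3 members just inside had levels of -2.96 to -2.75 in the alp13 deletion, -1.33 to -1.05 in asf1-1 and -2.06 to -1.84 in wild type. The 3 probes just outside had -3.02 to -2.79, -1.25 to -1.13 and -1.83 to -1.7 in the same strains. Counted in windows of 1000 bp from the outermost probe, the level in wild type was -2.36 in window 20, -1.80 in window 21, -1.64 in window 22 and -1.10 in window 23.

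**Figure D2:**
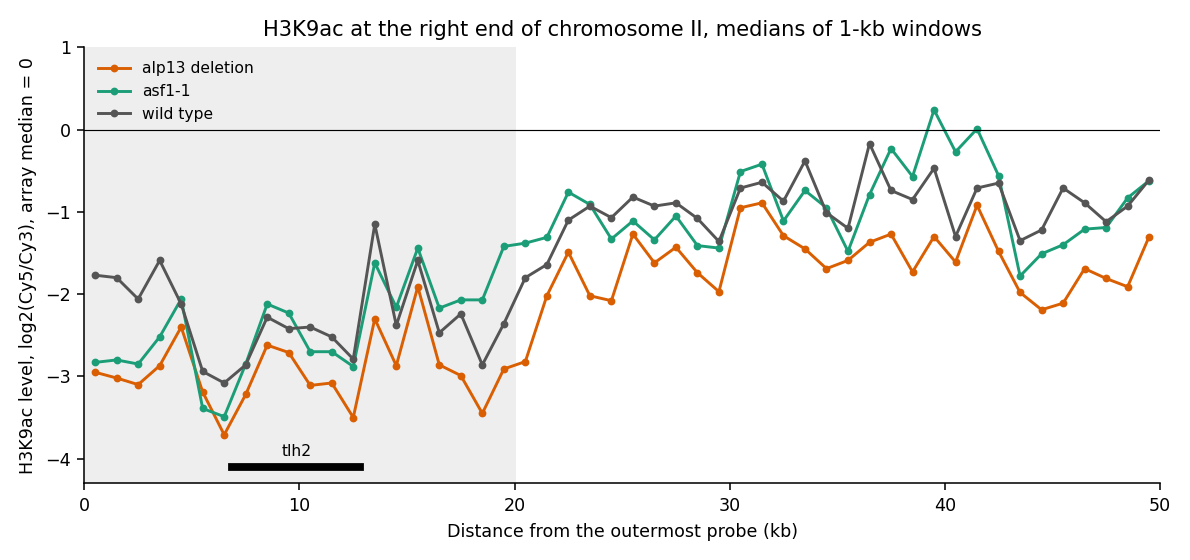
Median H3K9ac level in windows of 1000 bp over the last 50 kb of chromosome II, against the distance from the outermost probe. The shaded part is the outermost 20 kb, the bar marks tlh2, and all windows in it are below 0 in each strain, with peaks at windows 14 and 16 and the lowest level in window 7.

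Within the 20 kb, the level was uneven in a way that the 3 arrays shared in part. Across the 400 members, r was 0.637 between the alp13 deletion and wild type, 0.616 between asf1-1 and wild type and 0.733 between asf1-1 and the alp13 deletion. Neighbouring probes share sequence and chromatin fragments, so these are descriptions. Window 7, at the far end of tlh2 and just beyond it, was the lowest on every array, with -3.71 in the alp13 deletion, -3.49 in asf1-1 and -3.08 in wild type. The next lowest were window 13 in the alp13 deletion (-3.50) and window 6 in asf1-1 (-3.39) and wild type (-2.94). The highest in wild type was window 14 (-1.15), followed by windows 4 and 16 (both -1.59). In the alp13 deletion windows 16 (-1.91) and 14 (-2.30) were highest, and in asf1-1 windows 20 (-1.42) and 16 (-1.44).

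The reference annotation places 1 protein-coding gene, 3 pseudogenes and 21 non-coding RNA genes with at least 3 probes in the region. Without strand, a gene and an overlapping RNA on the other strand cannot be told apart. For each gene the mean over its probes is given with the SD across those probes, which is not a replicate error. The gene tlh2 (SPBCPT2R1.08C, II:4526885-4532899, plus strand, 120 probes) encodes a RecQ type DNA helicase. Its mean level was -2.93 ± 0.49 in the alp13 deletion, -2.44 ± 0.56 in asf1-1 and -2.44 ± 0.42 in wild type. On each array it was the lowest of the 886 protein-coding genes placed on chromosome II, whose medians were 0.12, 0.10 and 0.08.

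Just before the start of tlh2 lies the pseudogene SPBCPT2R1.10 (II:4526225-4526884, plus strand, 14 probes). It had -2.02 ± 0.63 in the alp13 deletion, -1.59 ± 0.51 in asf1-1 and -1.27 ± 0.71 in wild type, the highest wild-type level of the 4. Most of its 14 probes have a near-copy at mae1, as described below. The malic enzyme pseudogene SPBCPT2R1.07C (II:4523274-4524970, minus strand, 34 probes) had -2.06 ± 0.35, -1.64 ± 0.24 and -1.83 ± 0.34 in the same strains. Most of its 34 probes have a near-copy at mae2, so neither mean can be assigned to the pseudogene alone. The innermost, the pseudogene SPBCPT2R1.06C (II:4519772-4520391, minus strand, 13 probes), had -2.83 ± 0.10, -1.31 ± 0.13 and -2.14 ± 0.20. Its single probes ranged over -2.96 to -2.64, -1.52 to -1.05 and -2.45 to -1.84 in the same order. The non-coding RNA genes ranged from -3.46 to -2.03 in the alp13 deletion, from -3.45 to -1.43 in asf1-1 and from -2.99 to -1.67 in wild type.

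**Figure D3:**
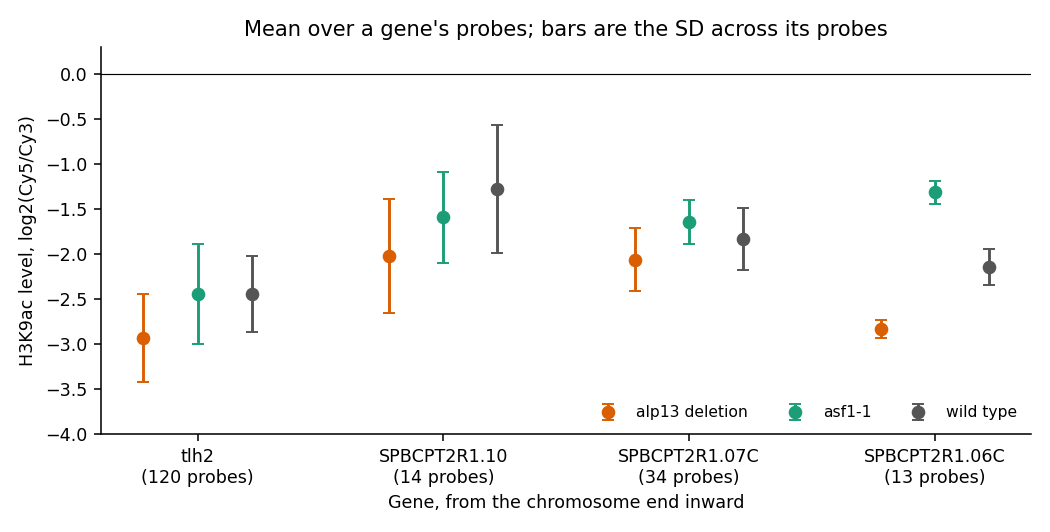
Mean H3K9ac level (log2 of Cy5 over Cy3) of tlh2 and the 3 pseudogenes in the alp13 deletion, asf1-1 and wild type, from the chromosome end inward, with bars for the SD across a gene's probes. All means are below 0, and the strains lie farthest apart at SPBCPT2R1.06C. Most probes of SPBCPT2R1.10 and SPBCPT2R1.07C have near-copies at mae1 and mae2.

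Both highest wild-type peaks of tlh2's inner flank sit on probes with near-copies at ordinary genes elsewhere. The 18 members between 12.98 and 13.98 kb from the outermost probe matched I:4911845-4912891, which covers the upstream side and the first part of mae1 (I:4912249-4914182), the gene of the malate permease. Their best matches held 50 to 57 identical bases of 60. The 32 members between 14.73 and 16.43 kb matched III:275541-277299, at mae2 (III:275261-277262), the gene of malic enzyme, with 50 to 59 identical bases. Both genes were named after the values had been seen, and the array has 0 probes within 10000 bp of either.

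The 18 probes with a mae1 copy had a median level of -2.22 in the alp13 deletion, -1.48 in asf1-1 and -0.97 in wild type. The other 22 probes of windows 13 and 14 had -3.48, -2.86 and -2.78. At the 32 probes with a mae2 copy the medians were -1.98, -1.62 and -1.82, against -3.11, -2.28 and -2.48 at the other 28 probes of windows 15 to 17. Of those 22 probes 17 lie inside tlh2. The 5 that do not had wild-type levels of -2.14, -2.11, -2.04, -1.18 and -2.90, so 1 probe (array bases 4528601 to 4528660) was raised without a mae1 copy by this measure. How much of this signal came from chromosomes I and III was not tested. The single highest member in wild type, whose sequence is shown above with the copy before mae1 (array bases 4527751 to 4527810), had -2.30 in the alp13 deletion, -1.0 in asf1-1 and -0.08 in wild type.

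**Figure D4:**
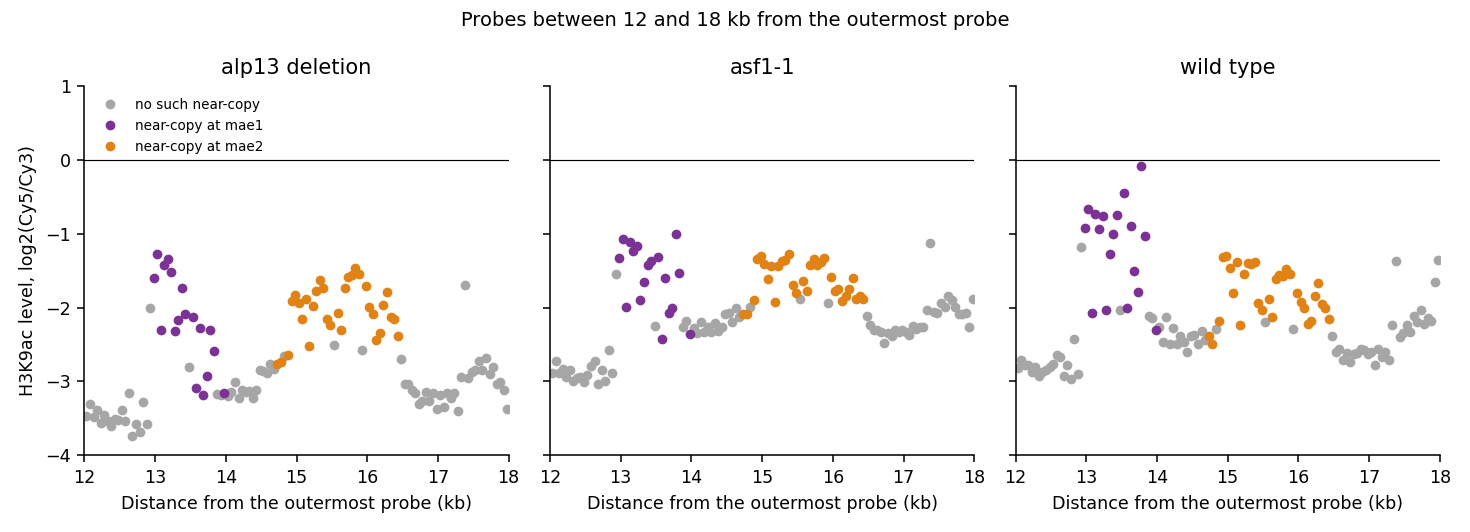
H3K9ac level (log2 of Cy5 over Cy3) of single probes between 12 and 18 kb from the outermost probe in the alp13 deletion, asf1-1 and wild type, coloured by a near-copy at mae1 (18 probes) or mae2 (32 probes). The coloured probes hold most of both peaks, and in wild type those at mae1 have a median of -0.97 and the highest member.

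Inside tlh2, 9 members between 10.13 and 11.08 kb had 10 or 11 near-copies each, among them copies in both arms of centromere 2 (II:1610543-1611404 and II:1636478-1637339). Their medians were -3.17 in the alp13 deletion, -2.86 in asf1-1 and -2.40 in wild type. The array's own probes at those arms, 17 at each, had -2.98, -2.75 and -2.17 on the left and -3.02, -2.78 and -2.19 on the right. The change in the alp13 deletion was -0.77 at the 9 tlh2 probes and -0.85 and -0.80 at the arms, and in asf1-1 it was -0.44, against -0.59 at both arms. On Cy5 alone these 9 probes changed by -0.64 in the alp13 deletion and by -0.42 in asf1-1. The other 31 probes of windows 11 and 12 changed by -0.55 and -0.08 (ratio), so the asf1-1 change at the 9 was nearer to that at the centromere arms.

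In the alp13 deletion, H3K9ac relative to the array median was lower than in wild type almost throughout the region. The median change was -0.55, against -0.21 over the rest of the array and -0.64 in the inner subtelomere, and 396 of 400 members were below 0. At 1.5-fold (0.585 on the log2 scale) 0 members were higher and 182 were lower. That is 45.5% of the members, where 36.2% of all kept probes were lower and 24.0% were higher. At 2-fold 67 members were lower (16.8%, against 20.1% of all kept probes) and 0 were higher (against 12.7%). The share of lower members was thus somewhat above that of all probes at 1.5-fold and below it at 2-fold, while 0 members were higher.

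The lower ratio came with a higher Cy3 signal, while Cy5 was nearly level. Relative to the array medians, Cy3 was higher in the alp13 deletion than in wild type by a median of 0.38 in the region (0.39 in the inner subtelomere and 0.01 in the rest of the array), and Cy5 alone changed by -0.09. Centred on probes outside protein-coding genes in place of all probes, the median change in the alp13 deletion was 0.63, in the other direction. The sign of the change therefore depends on the centring, and the differences between windows do not.

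The changes were large in the outermost 4 kb. Windows 2 (-1.20) and 1 (-1.14) fell most, followed by window 4 (-1.02), window 14 (-0.97), which holds most probes with a mae1 copy, and window 3 (-0.92). All 20 members of windows 1, 3 and 4 were lower by at least 1.5-fold, and 19 of 20 in window 2, against 36.2% of all kept probes. The changes were smallest in windows 16 (-0.22) and 6 (-0.24). On Cy5 alone windows 1 to 4 changed by -0.16, -0.11, -0.20 and 0.03, and on Cy3 alone by 0.88, 1.01, 0.72 and 1.09. At the inner edge it was Cy5 that was lower, by -0.32 in window 19 and -0.50 in window 20, with Cy3 changes of 0.24 and 0.03. The Cy3 change and the ratio change had r = -0.892 across the 400 members and -0.769 across the rest of the array. Cy3 is the denominator of the ratio, so part of this r is built in.

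Dim probes had the largest changes, a trend not particular to this region. Log2 Cy3 in wild type and the change had r = 0.814 across the 400 members and 0.565 across the rest of the array. Wild-type Cy3 is the denominator of the wild-type ratio and so enters the change, and part of this r is built in. The 62 members whose mean Cy3 was at or below the array median had a median change of -1.53, and 58 of them were lower by at least 1.5-fold. Their median Cy3 was 678.6 in the alp13 deletion and 238.6 in wild type, and their Cy5 alone changed by 0.09. The 338 brighter members changed by -0.49, and 124 were lower (36.7%, near the 36.2% of all kept probes). Of the 67 members lower by at least 2-fold, 49 were dim and 18 were brighter, which is 5.33% of the 338. The lowest computed change (-2.55, array bases 4523251 to 4523310) belongs to a probe whose Cy5 was not well above background on any array, so that its size is not measured, with processed Cy5 of 10.3 in the alp13 deletion and 9.15 in wild type and Cy3 of 96.4 in the alp13 deletion and 19.5 in wild type.

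Of the genes, SPBCPT2R1.10 (-0.75 ± 0.38) and SPBCPT2R1.06C (-0.69 ± 0.16) were lower by at least 1.5-fold, and tlh2 (-0.49 ± 0.16) and SPBCPT2R1.07C (-0.24 ± 0.17) were not. With the other centring they changed by 0.43, 0.49, 0.7 and 0.95 in that order, so tlh2 and SPBCPT2R1.07C were then higher by at least 1.5-fold. On Cy5 alone the changes were -0.21, -0.48, -0.13 and 0.02 in that order. Most probes of SPBCPT2R1.10 have a mae1 copy, and most of SPBCPT2R1.07C a mae2 copy. Among all 886 placed protein-coding genes, 21.7% were lower and 15.3% higher with the centring on all kept probes. Of the 21 non-coding RNA genes 9 were lower and 0 higher, with 45.1% lower and 15.4% higher among the 1235 placed non-coding RNA genes. Of the 9, 7 lie between tlh2 and the chromosome end, where the median of 11 genes was -0.92. Each of these 7 overlaps another of them on the other strand and shares probes with it, so they are not 7 separate readings.

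**Figure D5:**
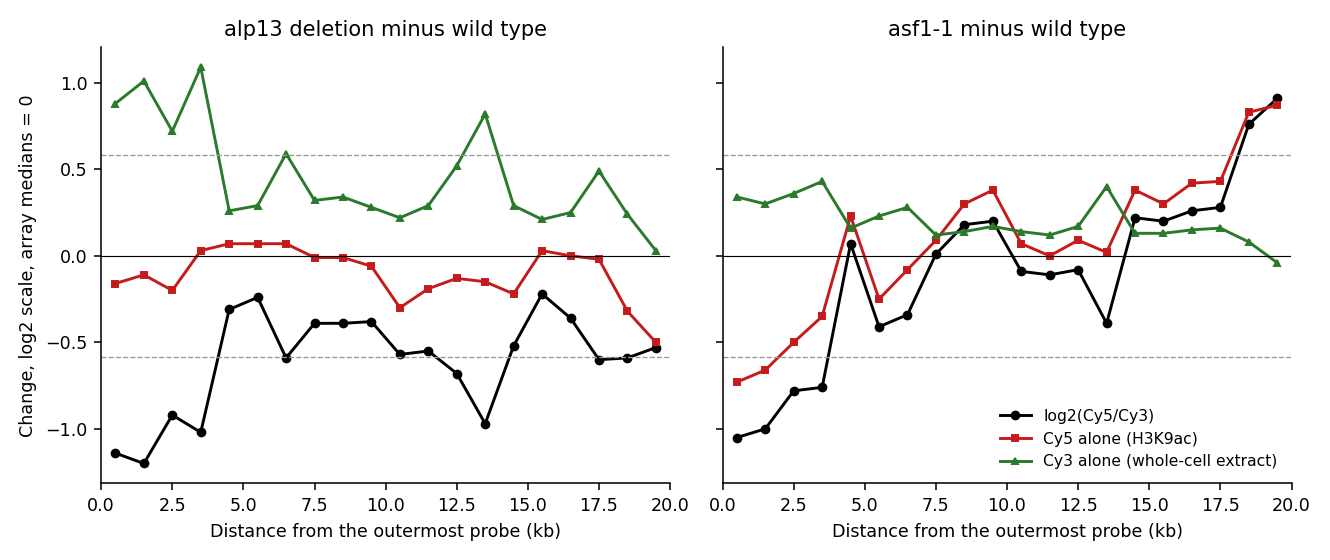
Change from wild type in windows of 1000 bp, as the log2 ratio and for each channel alone, for the alp13 deletion (left) and asf1-1 (right); dashed lines are 1.5-fold. In the alp13 deletion the fall over the outermost 4 kb is seen in Cy3 and hardly in Cy5, and in asf1-1 the Cy5 line follows the ratio at both ends of the region.

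In asf1-1 the median of the region was close to that of wild type, and its ends changed in opposite directions. The median change was -0.04, against -0.05 over the rest of the array, with 187 members above 0 and 213 below. Centred on probes outside protein-coding genes it was 0.37, so closeness to wild type depends on the centring. At 1.5-fold 33 members were higher (8.25%, against 5.02% of all kept probes) and 90 were lower (22.5%, against 10%). At 2-fold 10 members were higher (2.5%, against 0.717% of all kept probes) and 31 lower (7.75%, against 2.1%), and of the 338 brighter members 14 were lower (4.14%). Across the 400 members the change had r = 0.731 with the distance from the end, and Cy5 alone gave 0.731 too.

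Toward the telomere the change was negative. Windows 1 (-1.05) and 2 (-1.0) fell most, then windows 3 (-0.78) and 4 (-0.76). Of their 20 members each, 20, 19, 19 and 12 were lower by at least 1.5-fold. On Cy5 alone they changed by -0.73, -0.66, -0.50 and -0.35, and on Cy3 alone by 0.34, 0.30, 0.36 and 0.43, so that both channels moved. Over all 137 members between tlh2 and the end, the level was -2.86 in asf1-1 and -2.02 in wild type, and the alp13 deletion had -3.02. Their median change in asf1-1 was -0.72, with 78 lower and 0 higher. Among them the 99 brighter members changed by -0.56 and the 38 dim members by -0.99, and Cy5 alone by -0.31 and -0.65. The 91 members without any near-copy, which all lie in or next to this stretch, changed by -0.45 with 40 lower (44.0%) and 0 higher. The largest single fall (-1.69, array bases 4539601 to 4539660) had a level of -2.91 in asf1-1 and -1.23 in wild type. It belongs to a dim probe, and the largest fall among the brighter members was -1.34.

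Centred on all kept probes, the asf1-1 change over tlh2 averaged near 0, with 61 of its 120 probes above 0 and 59 below. Windows 9 and 10, inside tlh2, changed by 0.18 and 0.20, and window 12 by -0.11. The mean change of tlh2 was 0.00 ± 0.21, and 0.14 on Cy5 alone. Centred on probes outside protein-coding genes it was 0.42. With the centring on all kept probes, 0 of the 120 members were higher and 1 was lower by at least 1.5-fold. The same count over tlh2 for the alp13 deletion was 30 lower and 0 higher. Its share of lower members was below that of all kept probes, of which 36.2% were lower and 24.0% higher in the alp13 deletion.

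Inward of tlh2 the change was positive. The 143 members there had a median change of 0.25, with 33 higher and 11 lower, and Cy5 alone changed by 0.40. Windows 20 (0.91) and 19 (0.76) rose most, and all 20 members of window 20 were higher by at least 1.5-fold. In window 19, 13 members were higher and 6 lower. The 6 were dim probes, and Cy5 in asf1-1 was not well above background at 2 members of window 19. On Cy5 alone windows 20 and 19 changed by 0.87 and 0.83, and on Cy3 alone by -0.04 and 0.08. At the pseudogene SPBCPT2R1.06C the change was 0.83 ± 0.09 (0.82 on Cy5 alone), and at the RNA gene SPNCRNA.6643 on its other strand 0.94 ± 0.07 (0.88 on Cy5 alone). The next windows inward, 21 to 23, changed by 0.29, 0.31 and 0.31. A rise of this size was not particular to this edge, since window 41 in the inner subtelomere changed by 1.09 and its gene SPBPB2B2.16C by 0.86 ± 0.22. All 33 higher members lie in windows 19 and 20 and had near-copies at both ends of chromosome I. Of the 400 members, 269 had a near-copy at its left end and 122 at its right end. The largest rise (1.19, array bases 4522401 to 4522460) is at the sequence shown above that is identical at 3 chromosome ends. That probe had a level of -1.78 in asf1-1 and -2.97 in wild type, with Cy5 of 640.3 in asf1-1 and 306.6 in wild type. The end that carries the change cannot be told apart by these probes.

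The pseudogenes nearer to tlh2 changed less, with 0.18 ± 0.12 at SPBCPT2R1.07C and -0.32 ± 0.26 at SPBCPT2R1.10. Both means rest mostly on probes with a near-copy at mae2 or mae1. Of the 21 non-coding RNA genes 1 was higher and 7 were lower by at least 1.5-fold, with 2.67% higher and 13% lower among all placed non-coding RNA genes. All 7 lie between tlh2 and the chromosome end, where the changes reached -1.07 at SPNCRNA.6663 and -1.04 at SPNCRNA.6662. Each of the 7 overlaps another of them on the other strand and shares probes with it, so they are not 7 separate readings. Of all placed protein-coding genes 1.69% were higher and 2.14% lower.

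Set against each other without the wild-type array, asf1-1 was above the alp13 deletion over most of the region. The median difference, asf1-1 minus alp13 deletion, was 0.50, with 165 members higher in asf1-1 (41.2%, against 26.4% of all kept probes) and 0 lower (against 17.1%). At 2-fold 52 were higher (against 9.77% of all kept probes) and 0 lower (against 6.82%). With the centring on probes outside protein-coding genes the median difference was -0.27, so its sign depends on the centring too. With the main centring it was 0.22 between tlh2 and the end, 0.48 in tlh2 and 0.82 inward of tlh2. It was largest in windows 20 (1.5) and 19 (1.40) and lowest in window 6 (-0.16), where no member passed 1.5-fold. On Cy5 alone windows 19 and 20 differed by 1.19 and 1.35, and windows 1 to 4 by -0.52, -0.63, -0.28 and -0.31, the opposite sign to their ratios (0.14, 0.25, 0.16 and 0.68). Window 7 differed by 0.24 in its ratio and by -0.08 on Cy5 alone. Over all 137 members between tlh2 and the end Cy5 alone differed by -0.31, so there the order of the mutants depends on whether Cy3 is taken into account. The pseudogene SPBCPT2R1.06C was 1.52 higher in asf1-1 and tlh2 0.49 higher, where 16.1% of the placed protein-coding genes were higher by at least 1.5-fold and 8.8% lower. Of the 21 non-coding RNA genes 4 were higher and 0 lower, against 33.4% higher and 11.3% lower among all placed ones.

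Few other genes of the pathways around this region are on the array. Of the 5 genes tlh1, tlh2, tlh3, tlh4 and rqh1, which encode RecQ type helicases, 1 was measured (tlh2). Of 7 genes of telomere-binding and shelterin proteins 0 were measured, and of 13 heterochromatin genes 1 was measured (clr1). In the inner subtelomere 11 protein-coding genes were measured, with mean levels from -1.9 to -0.80 in the alp13 deletion, from -1.68 to -0.18 in asf1-1 and from -1.15 to -0.20 in wild type. All of these lay above tlh2. Against wild type, the alp13 deletion had 3 of the 11 lower and 0 higher past 1.5-fold, and asf1-1 had 2 lower and 1 higher. Among all 886 placed protein-coding genes, 21.7% were lower and 15.3% higher in the alp13 deletion. In asf1-1 these shares were 2.14% and 1.69%.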

How the data were processed

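Scanner files of 3 two-colour arrays were deposited. The scans were read by Agilent Feature Extraction, version 10.7.3.1, per the file headers. The processed intensity of each channel, as deposited by the authors, was background-subtracted and dye-normalized, per the file headers. The deposited log10 ratio column equals that of the processed signals to within 4.1e-07. The authors' deposited value table gives 1 score per probe with unknown scale, centring and direction, and entered no comparison. Its columns had r = 0.528, -0.58 and 0.225 with the alp13 deletion, asf1-1 and wild-type arrays they are named for, and column medians of 0.085, -0.020 and 0.114. The column named for the alp13 deletion had r = 0.687 with the asf1-1 array. The build behind the array's positions was not given in the sources used here.

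From these values, log2 of processed Cy5 over Cy3 was computed and centred on each array's median, without loess or quantile steps. Control spots and outlier-flagged spots were left out (43912 of 43993 probes kept). Before centring the medians were 0.41, 0.17 and 0.00 in the alp13 deletion, asf1-1 and wild type. Placement was checked in blocks of 20000 bp of chromosome II, and 101 of 104 blocks passed a margin of 0.1 in r, all within 20 bp of their side's offset (-1800 bp right of base 1620000, -900 bp left of it). Near-copies were found with blastn 2.17.0. Genes with at least 3 probes were summarised by their mean, and those named are all genes of the region, the extreme windows, and mae1, mae2 and the centromere copies, which were picked after their values were seen. Placement and calls were tested on simulated data. Probes were called at 1.5-fold and 2-fold. With 1 array per strain there is no test. Alternatives covered centring, background (normexp of limma 3.58.1 with offset 50, on median signals, since the files hold no mean signal), near-copies, dim probes, Cy5 alone, array spread, the summary and the extent. Other versions were R 4.3.3, Python 3.11.15, numpy 2.4.6, pandas 2.3.3, scipy 1.17.1 and matplotlib 3.10.9. The members and gene lists were chosen with earlier results of these data known. Some sequence of the region is not reported here.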

Additional observations from a re-analysis of the deposited data

How the results depend on the processing

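The low level of the outermost 20 kb held under every alternative run, while the signs of the median changes did not. Without centring, the median level was -2.59 in the alp13 deletion and -2.16 in asf1-1, the changes from wild type were -0.14 and 0.12, and asf1-1 minus alp13 deletion was 0.26. The share lower was then 17.5% in the alp13 deletion, and asf1-1 against the alp13 deletion had 21.8% higher and 0.5% lower. Centred on probes outside protein-coding genes, the level was -2.14 in the alp13 deletion and -2.62 in wild type. The changes were then 0.63 in the alp13 deletion (55.5% higher, 5.75% lower) and 0.37 in asf1-1 (29.5% higher, 7.75% lower), and asf1-1 minus alp13 deletion was -0.27 (9.0% higher, 18.0% lower). SPBCPT2R1.06C and SPBCPT2R1.10 turned to 0.49 and 0.43 in the alp13 deletion there, and tlh2 and SPBCPT2R1.07C to 0.7 and 0.95. All moved by the shift of each array's zero.

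With normexp, levels were -3.49, -2.84 and -2.63 in the alp13 deletion, asf1-1 and wild type, and lay -1.53, -1.64 and -1.53 from the inner subtelomere. The alp13 deletion then changed by -0.82, and asf1-1 minus alp13 deletion was 0.69 with 6.0% lower. Probes without a near-copy gave levels of -3.19, -3.03 and -2.54 in the same strains, with -2.13 (asf1-1) and -1.61 (wild type) to the inner subtelomere. The asf1-1 change was then -0.45 (0.0% higher, 44.0% lower), and asf1-1 minus alp13 deletion was 0.16 (5.49% higher). These 91 probes all lie in the outer part of the region. The outermost 10 kb gave asf1-1 a level of -2.77, a change of -0.31 and -1.69 to the inner subtelomere.

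On Cy5 alone the changes were -0.09 in the alp13 deletion (1.25% higher, 2.75% lower) and 0.14 in asf1-1 (9.0% lower), and asf1-1 minus alp13 deletion was 0.21 (15.8% higher, 8.5% lower). With arrays set to 1 spread, the alp13 deletion changed by -0.83 (79.2% lower) and asf1-1 by -0.41 (37.0% lower), and asf1-1 against the alp13 deletion had 0.5% lower. Means over probes gave -0.69 and -0.13. Except in the centring changes, the cause was not tested. Probes with copies away from these chromosome ends, or dim probes, were also left out, both chosen after seeing the data. This moved no median of the whole region by more than the SD of 1 probe from near-duplicate pairs. It moved no share of the whole region past 1.5-fold by more than 1.5 times. Shares past 2-fold were not among these. Without dim probes the share lower by 2-fold was 5.33% in the alp13 deletion (16.8% with them) and 4.14% in asf1-1 (7.75% with them). Parts of the region moved more. Between tlh2 and the end, leaving out dim probes took the median change in the alp13 deletion from -0.86 to -0.67. In asf1-1 it went there from -0.72 to -0.56.

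No paired analysis was possible because each strain has 1 array. No value has a replicate error, and no setting left out a replicate. The members whose Cy5 was not well above background (4, 9 and 5 in the alp13 deletion, asf1-1 and wild type) were all among the 62 dim probes. Copies at other chromosome ends limit what a probe can locate.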
